A study of Mus musculus with 8 samples.

Results

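The genes described here are the CDK inhibitors of the CIP/KIP family (Cdkn1a, Cdkn1b, Cdkn1c) and the INK4 family (Cdkn2a, Cdkn2b, Cdkn2c, Cdkn2d), with the D cyclins Ccnd1, Ccnd2 and Ccnd3, 10 genes in all. They were chosen by name, and their probes were found through the accession the array files give for each probe. Of the 10 genes, 9 had a matched probe, and these 9 were well above background on all 8 arrays; they are 9 of the 13332 genes tested. Ccnd1 was not analysed here. The 9 genes had 12 probes on 39 spots of each array.

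Expression was measured in secondary neurospheres from the hippocampus of mice aged 7 to 9 weeks. Neurospheres are balls of stem and progenitor cells grown in suspension, and secondary ones come from replating dissociated primary ones. Each of 4 groups had 2 arrays. The Sirt1 KO group and its WT group were of a 129/ICR background and were harvested after 6 days, with replicate 1 from females and replicate 2 from males. The resveratrol group and its DMSO group were C57BL/6 wild-type cells from males, cultured for 5 days and then given the compound or the solvent for 24 hours, with a resveratrol dose that the label gives as 10 and a unit written "mm". All 4 groups shared bFGF, EGF and PDGF-BB at 10 ng/ml in the primary culture and bFGF and EGF at 20 ng/ml in the secondary culture. The labels do not name the Sirt1 allele or say whether the replicates were separate cultures, so the p-values reflect the spread between arrays, which may be technical.

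D cyclins bind and activate CDK4 and CDK6, which phosphorylate the retinoblastoma protein and release E2F factors to drive entry into S phase. The 4 INK4 proteins bind CDK4 and CDK6 and block that step, while the CIP/KIP proteins p21 (Cdkn1a), p27 (Cdkn1b) and p57 (Cdkn1c) act on a wider range of cyclin and CDK complexes. In neural stem and progenitor cells these inhibitors are known for holding cells out of the cycle, and Sirt1 encodes an NAD-dependent deacetylase whose known substrates include p53, an activator of Cdkn1a. Resveratrol, a polyphenol of plants, is given as a SIRT1 activator.

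Cdkn2b and Cdkn2a are neighbours on mouse chromosome 4 and both lie on the minus strand. Their promoter windows are shown because the genes, side by side in the genome, had different values in these groups, and that of Cdkn1a because its groups lay apart in the resveratrol comparison. Each window runs from 250 bases before to 50 bases from the transcript start, from RefSeq on GRCm38.p6, and 7 of the 10 genes had at least 1 window, 11 windows in all. Capitals mark matches on either strand to GGGCGG (a GC box), TGACGTCA (a cAMP response element), TTTCCCGC (an E2F-type element) and CACNAG (an N box, the element of Hes repressors).
Cdkn2b, chr4:89310983-89311282, minus strand: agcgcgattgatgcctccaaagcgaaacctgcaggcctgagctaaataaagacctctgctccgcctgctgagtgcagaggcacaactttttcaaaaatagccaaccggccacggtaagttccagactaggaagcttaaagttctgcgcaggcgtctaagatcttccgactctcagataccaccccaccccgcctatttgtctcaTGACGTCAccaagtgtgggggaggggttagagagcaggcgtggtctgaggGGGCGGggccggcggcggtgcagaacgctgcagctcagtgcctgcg
Cdkn2a, Arf start, chr4:89294570-89294869, minus strand: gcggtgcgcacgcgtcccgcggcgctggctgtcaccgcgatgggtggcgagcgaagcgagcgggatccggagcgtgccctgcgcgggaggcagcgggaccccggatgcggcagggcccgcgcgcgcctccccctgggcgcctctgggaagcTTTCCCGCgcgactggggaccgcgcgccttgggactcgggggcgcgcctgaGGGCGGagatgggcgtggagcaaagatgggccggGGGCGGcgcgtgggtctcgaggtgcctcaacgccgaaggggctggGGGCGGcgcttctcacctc
Cdkn2a, Ink4a start, chr4:89282143-89282442, minus strand: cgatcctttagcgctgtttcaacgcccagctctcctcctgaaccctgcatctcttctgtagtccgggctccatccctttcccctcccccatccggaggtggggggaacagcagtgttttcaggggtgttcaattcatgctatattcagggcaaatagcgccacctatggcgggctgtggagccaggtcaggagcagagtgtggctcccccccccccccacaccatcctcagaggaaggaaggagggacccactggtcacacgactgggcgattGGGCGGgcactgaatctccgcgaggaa
Cdkn1a, downstream start, chr17:29093519-29093818, plus strand: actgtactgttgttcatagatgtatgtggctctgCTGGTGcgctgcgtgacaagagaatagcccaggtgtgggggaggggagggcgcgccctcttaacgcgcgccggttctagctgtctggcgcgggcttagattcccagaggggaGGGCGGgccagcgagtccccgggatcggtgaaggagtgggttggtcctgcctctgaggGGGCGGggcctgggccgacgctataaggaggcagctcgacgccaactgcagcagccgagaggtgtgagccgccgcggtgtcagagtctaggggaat

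The Cdkn2b window held TGACGTCA 46 bases before the start, a motif in 1.79% of the 32851 promoters searched, and 1 GGGCGG, a motif in 35.7% of them. The Arf window of Cdkn2a held TTTCCCGC, found in 1.07% of promoters, and 3 matches to GGGCGG, and its Ink4a window held 1 GGGCGG. The Cdkn1a window held 2 matches to GGGCGG and 1 to CACNAG, a motif in 42.5% of promoters. CACGTG (7.15% of promoters), TGANTCA (7.81%), GTAAACA (3.65%), TTTCGCGC (0.323%) and TTTGGCGC (0.514%) were also searched on both strands and are not in these 4 windows. These matches describe the letters of the windows and were not tested for binding.

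The 75th percentile of the signal, on which each array was centred, lay between 740 and 910 for replicate 1 and between 257 and 388 for replicate 2 of the 4 groups, and 53.1% to 72.0% of probes were well above background. The arrays lay on 3 slides, and slide 3, scanned on its own day, held Sirt1 KO 2 and WT 2. Sirt1 KO 1 lay on slide 2 and WT 1 on slide 1, so the female pair is compared across slides. The Sirt1 probe with the highest mean read 0.36 and -0.12 in Sirt1 KO and 0.12 and 0.13 in WT, a difference of -0.0046 (SE 0.24). A second Sirt1 probe read -1.08 and -1.97 in Sirt1 KO and -1.38 and -1.04 in WT, a difference of -0.31 (SE 0.35), and on both probes the groups overlapped. The sources used here do not say whether either probe falls in deleted sequence, so neither checks the labels. The neural stem and progenitor markers were measured for 10 of 10 genes, with 9 or 10 of them well above background on every array, while 1 of 7 microglial, 2 of 6 endothelial and 2 of 6 pericyte and fibroblast markers were measured.

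Levels below are log2 signals relative to the 75th percentile of their array, and they are compared between groups for 1 probe, never between genes, since probes differ in brightness. A difference is the mean of one group minus the mean of the other on this log2 scale. In bulk samples, fewer cells of a type and less RNA per cell cannot be told apart. Precision is limited by the 2 arrays in each group.

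**Figure D1:**
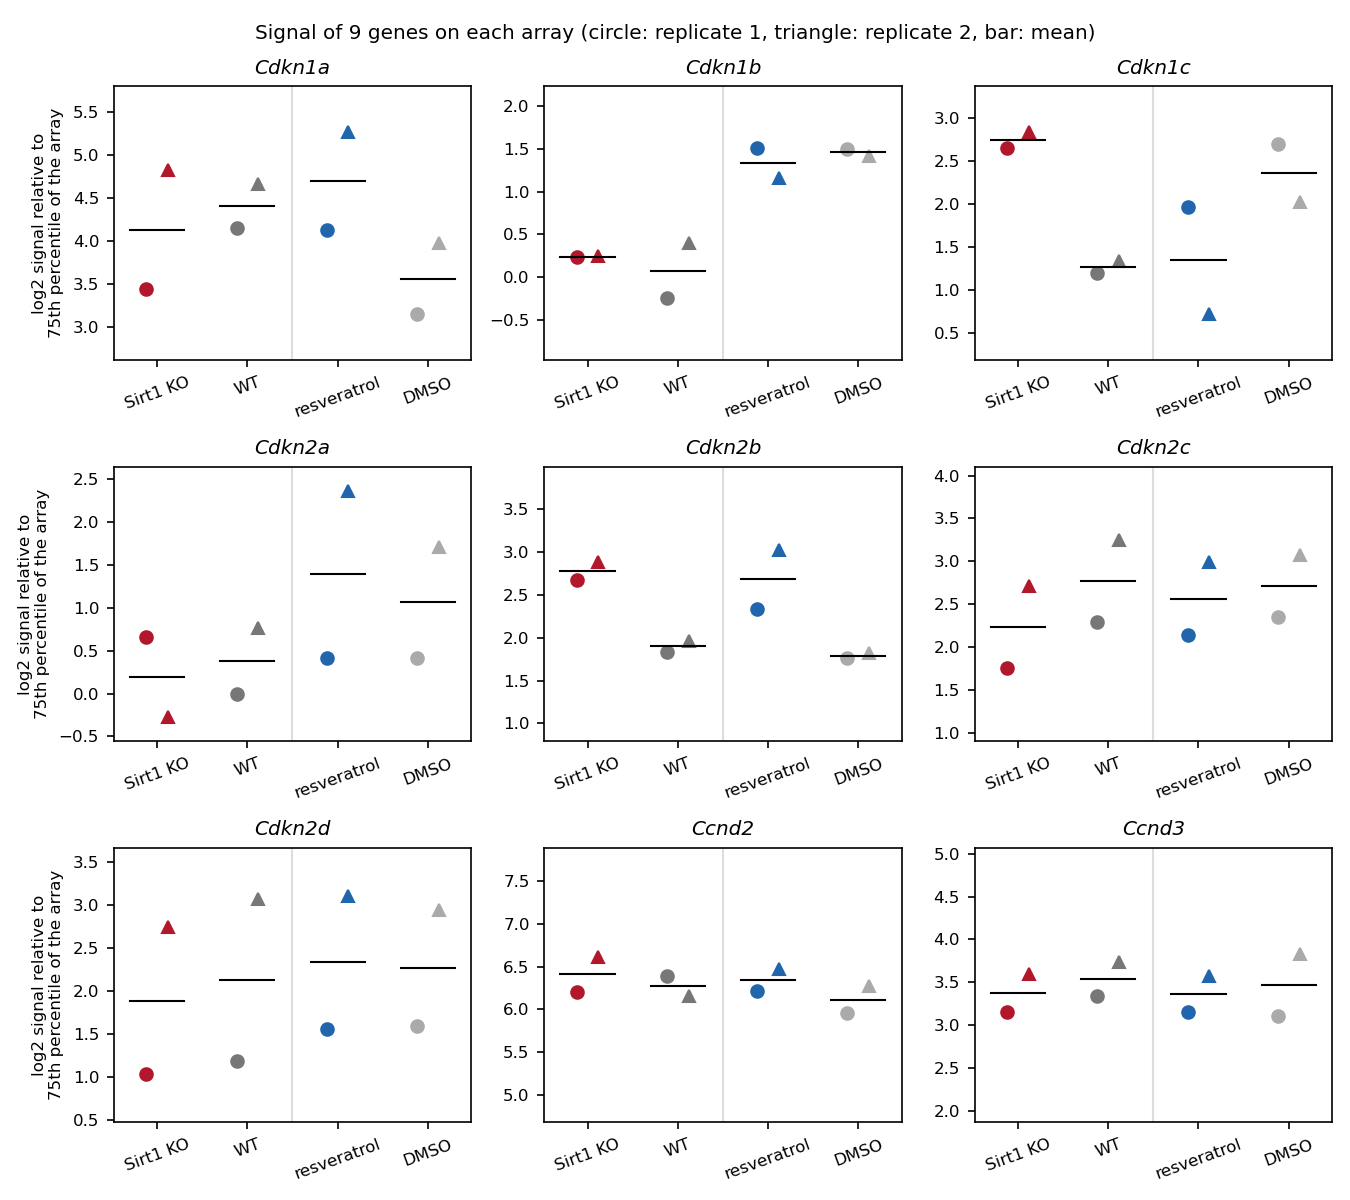
Log2 signal relative to the 75th percentile of the array (y axis, all panels spanning the same range) for the 9 measured genes in Sirt1 KO, WT, resveratrol and DMSO neurospheres, with circles for replicate 1, triangles for replicate 2 and bars for the mean of 2 arrays. Cdkn1c lies apart between Sirt1 KO and WT and, the other way, between resveratrol and DMSO; Cdkn2b lies apart and higher in both Sirt1 KO and resveratrol.

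The first comparison, Sirt1 KO minus WT, addresses the loss of SIRT1. Cdkn1c, which encodes p57, an imprinted CIP/KIP inhibitor expressed from the maternal allele, read 2.65 and 2.84 in Sirt1 KO, against 1.19 and 1.33 in WT. Both Sirt1 KO arrays were above both WT arrays, and the gap was many times the distance between replicates. The difference was 1.48 (SE 0.44, 2.79-fold, 95% interval 0.44 to 2.52), at 2.74-fold in the female pair and 2.84-fold in the male pair. It did not pass in the fit of group means (limma, unadjusted p = 0.0122, adjusted p = 1.0). No gene did: 0 of 13332 genes were called higher (0%) or lower (0%), and 159 genes, 1.19%, had an unadjusted p below 0.05, among them Cdkn1c and Cdkn2b.

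With replicate number as a block, which takes out the difference shared by the replicates of an arm, Cdkn1c was the only one of the 9 genes called in Sirt1 KO minus WT (adjusted p = 0.0142, SE 0.15), where 0.173% of all genes were called higher and 0.045% lower. The call was lost with the block and no intensity trend (adjusted p = 0.168), with the block and all kept probes tested (adjusted p = 0.0611) and with slide as the block (difference 1.87, adjusted p = 0.331). Leaving out 1 Sirt1 KO or WT array gave differences between 1.39 and 1.57, none of them called. At least a 2-fold difference in both pairs was seen in 0.564% of genes, and Cdkn1c was the 1 gene of the 9.

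Cdkn2b, which encodes p15, an INK4 inhibitor known as a target of TGF-beta signalling, read 2.67 and 2.88 in Sirt1 KO and 1.84 and 1.96 in WT. As for Cdkn1c, both Sirt1 KO arrays were above both WT arrays. The difference was 0.87 (SE 0.28, 1.83-fold, 95% interval 0.20 to 1.54), at 1.78-fold in the female pair and 1.89-fold in the male pair. It was not called in the fit of group means (unadjusted p = 0.0179, adjusted p = 1.0) or with the replicate block (adjusted p = 0.0741). These 2 genes were the ones of the 9 whose Sirt1 KO arrays lay wholly above WT, beside 7.12% of all genes, and 0 of the 9 lay wholly below, beside 7.83%.

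The other INK4 genes did not share the direction of Cdkn2b. Cdkn2a, which encodes both p16Ink4a and p19Arf, read 0.66 and -0.28 in Sirt1 KO and -0.0019 and 0.77 in WT, so that the female pair differed by 0.66 and the male pair by -1.05. The groups overlapped, and the probe was not assigned to either transcript here. Cdkn2c, which encodes p18, read 1.75 and 2.71 in Sirt1 KO and 2.30 and 3.25 in WT, a difference of -0.54 in each pair (SE 0.52, replicate block adjusted p = 0.0972). Its groups overlapped because the replicates of each group were further apart than the genotypes. Cdkn2d, which encodes p19Ink4d, differed by -0.24 (SE 0.91), with pairs at -0.15 and -0.33.

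Of the other CIP/KIP genes, Cdkn1a read 3.44 and 4.83 in Sirt1 KO and 4.15 and 4.66 in WT. Both Sirt1 KO values fell outside the WT range, 1 below and 1 above, and the pairs differed in sign (-0.71 and 0.17). Cdkn1b differed by 0.16 (SE 0.28), with pairs at 0.48 and -0.16. Of the D cyclins, Ccnd2, the D cyclin known for its role in neural progenitors, read 6.21 and 6.61 in Sirt1 KO and 6.40 and 6.15 in WT (difference 0.13, 95% interval -0.84 to 1.11), and Ccnd3 differed by -0.17 (95% interval -1.02 to 0.69). The median difference over the 9 genes was -0.17, against -0.04 over all genes tested.

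The second comparison, resveratrol minus DMSO, addresses the compound given to activate SIRT1. Cdkn1a, which encodes p21, the CDK inhibitor induced by p53, read 4.12 and 5.27 with resveratrol, against 3.15 and 3.97 with DMSO. Each resveratrol array was above its DMSO partner on the same slide and above the other DMSO array, so that the groups lay apart by a margin much smaller than the distance between replicates. The difference was 1.14 (SE 0.61, 2.20-fold, 95% interval -0.31 to 2.58), with pairs at 1.97-fold and 2.46-fold. It was not called in the fit of group means (unadjusted p = 0.106, adjusted p = 1.0) or with the replicate block (adjusted p = 0.0636). The 10 spots of the Cdkn1a probe differed on an array by an SD of 0.02 to 0.05, far less than the arrays differed.

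Cdkn2b read 2.34 and 3.02 with resveratrol and 1.76 and 1.82 with DMSO. Both resveratrol arrays were above both DMSO arrays, by 1.49-fold on slide 1 and 2.30-fold on slide 2. The difference was 0.89 (SE 0.28, 1.85-fold, 95% interval 0.22 to 1.56), the smallest p of the 9 genes in this comparison (unadjusted p = 0.0165, adjusted p = 1.0, replicate block adjusted p = 0.0644). Cdkn1a and Cdkn2b were the 2 of the 9 genes whose resveratrol arrays lay wholly above DMSO, beside 10.3% of all genes. Cdkn1c was the 1 gene wholly below, beside 8.72%.

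Cdkn1c read 1.97 and 0.72 with resveratrol and 2.70 and 2.03 with DMSO. Both resveratrol arrays were below both DMSO arrays, the lowest DMSO value exceeding the highest resveratrol value by little. The difference was -1.02 (SE 0.44, 2.03-fold lower, 95% interval -2.06 to 0.02), with pairs at -0.73 on slide 1 and -1.31 on slide 2. It was not called in the fit of group means (unadjusted p = 0.0533, adjusted p = 1.0). With the replicate block, which in this arm is the slide, Cdkn1c had an adjusted p of 0.0428, where 0.405% of all genes were called higher and 0.0525% lower. The call was lost with the block and quantile normalization (adjusted p = 0.0522), with marked spots kept (0.0637), with all kept probes tested (0.0932) and with no intensity trend (0.301). With slide as the block over both arms, where slide effects are also fitted to the genotype arrays, the difference was the same and the adjusted p was 0.974.

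The size of the Cdkn1c difference depended on single arrays: it was -0.39 without resveratrol 2, -0.69 without DMSO 1, -1.36 without DMSO 2 and -1.65 without resveratrol 1. Cdkn1a ranged from 0.56 without resveratrol 2 to 1.71 without resveratrol 1, and Cdkn2b from 0.55 without resveratrol 2 to 1.23 without resveratrol 1. The sign of these differences was kept each time. In the fit of group means 0 of 13332 genes were called higher (0%) or lower (0%), and 201 genes, 1.51%, had an unadjusted p below 0.05.

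The remaining genes differed little between resveratrol and DMSO next to their intervals. Cdkn2a read 0.42 and 2.37 with resveratrol and 0.42 and 1.71 with DMSO, a difference of -0.0024 on slide 1 and 0.65 on slide 2. Cdkn1b differed by -0.13 (95% interval -0.78 to 0.53) and Cdkn2c by -0.15 (95% interval -1.38 to 1.09). Cdkn2d differed by 0.07 (95% interval -2.10 to 2.24). Ccnd2 was 0.25 and 0.20 higher in the pairs (difference 0.23, SE 0.41), and Ccnd3 differed by -0.11 (SE 0.36). The median over the 9 genes was 0.07, against 0.01 over all genes.

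**Figure D2:**
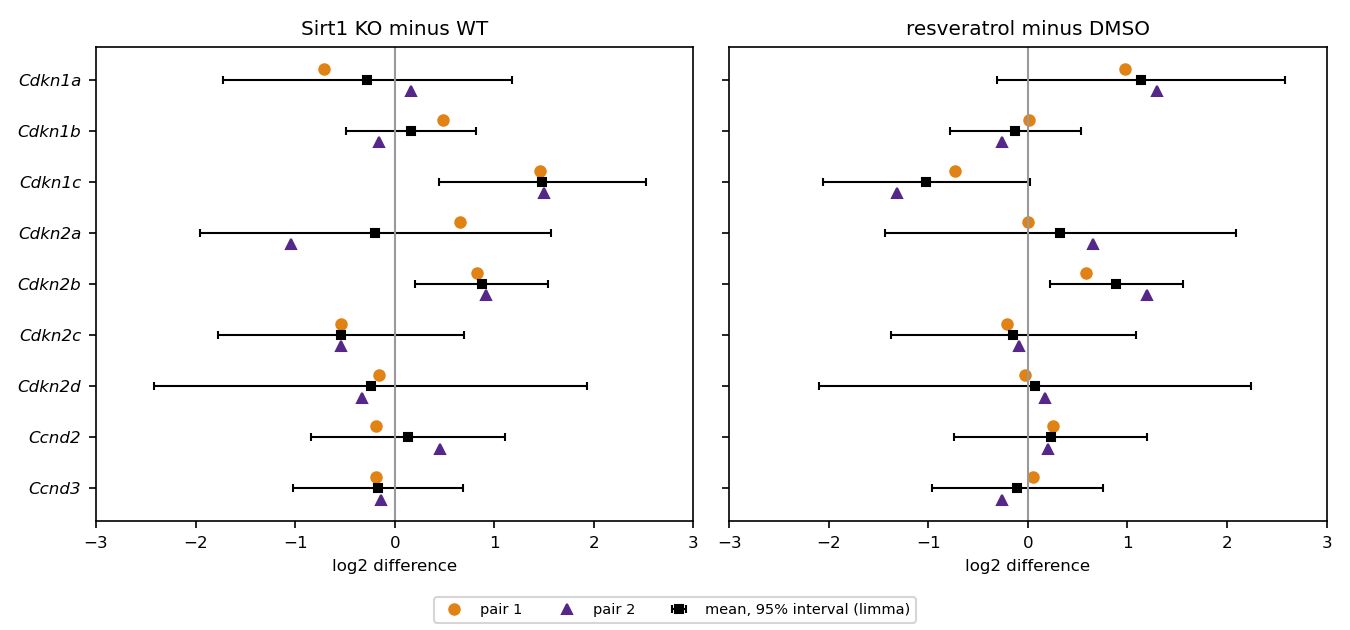
Log2 difference (x axis) of the 9 measured genes for Sirt1 KO minus WT (left) and resveratrol minus DMSO (right), with squares for the mean difference, bars for its 95% interval from limma, circles for pair 1 and triangles for pair 2. Cdkn1c is at 1.48 on the left and -1.02 on the right, and Cdkn2b is at 0.87 and 0.89.

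The genotype and treatment arms differ in strain, culture, the sex of replicate 1 and slide. A difference between the effects of genotype and compound cannot be told apart from these. The effects were set against each other as a difference of differences, which shares no array between its sides. For Cdkn1c it was -2.50 (SE 0.62, 95% interval -3.97 to -1.03), the 9th smallest p of all genes (unadjusted p = 0.0052), but it did not pass in the fit of group means (adjusted p = 1.0), where 0 genes were called and 125, 0.938%, had an unadjusted p below 0.05. With the replicate block the adjusted p was 0.00843, where 0.173% of genes were called higher and 0.12% lower. It was 0.0409 with the block and all kept probes tested, but 0.247 with the block and no intensity trend and 0.608 with slide as the block. Cdkn1c was the 1 gene of the 9 that was higher in both Sirt1 KO pairs and lower in both resveratrol pairs, a pattern of 6.17% of all genes.

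For Cdkn2b the difference of differences was 0.02 (SE 0.40, 95% interval -0.93 to 0.96), an interval wide enough to hold an unequal response. It was higher in both pairs of each arm, as were 9.5% of all genes. For Cdkn1a the difference of differences was 1.41 (SE 0.86, 95% interval -0.64 to 3.46; adjusted p = 1.0, replicate block adjusted p = 0.107).

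Markers of other cell types differed between the groups as well. The log2 of the summed signal of the 6 measured mature oligodendrocyte markers of 7 was 3.23 and 3.16 in Sirt1 KO against 2.56 and 2.82 in WT, and 2.87 and 2.55 with resveratrol against 3.27 and 3.01 with DMSO. The sum was apart and higher in Sirt1 KO, and apart and lower with resveratrol, as was Cdkn1c, but its members were not uniform. Signals were summed before taking the log, so Cnp, the brightest of the 6, makes up most of the sum on every array. Cnp is also among the genes nearest in pattern to Cdkn1c, so the sum is not separate from that likeness. In Sirt1 KO minus WT 3 of the 6 were higher and 1 lower in both pairs, where 22.3% of all genes were higher and 34.2% lower. In resveratrol minus DMSO 0 were higher and 3 lower in both pairs, where 36.7% of all genes were higher and 32.3% lower. Cnp had groups apart in those directions, whereas Mobp, another myelin protein, read -5.26 and -4.06 in Sirt1 KO against -4.56 and -3.84 in WT. Mobp was not well above background on WT 2, nor was Mal, which was higher in both Sirt1 KO pairs. Mog, a defining marker of mature oligodendrocytes, was not well above background on both arrays of any group.

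The 9 astrocyte markers summed to 7.36 and 8.12 in Sirt1 KO and 6.66 and 7.42 in WT. These ranges overlap, but the sum was higher in Sirt1 KO in both pairs. Of the 9 markers 6 were higher and 0 lower in both pairs, where 22.3% of all genes were higher and 34.2% lower. The markers had a median difference of 0.62, and 5 had Sirt1 KO arrays wholly above WT, beside 7.12% of all genes. Both counts hold Gfap, not well above background on Sirt1 KO 2 or either WT array, and Aqp4, not so on WT 2. With the replicate block Apoe, a lipid carrier made by astrocytes, was called at 1.43 (adjusted p = 0.0123) and Aldoc, a glycolytic enzyme, at 0.94 (adjusted p = 0.0245), and neither was called in the fit of group means. With resveratrol the sum was 7.87 and 7.86, against 7.85 and 7.68 with DMSO, apart and higher by little. The median difference was 0.09. Of the 9 markers 5 were higher and 2 lower in both pairs, where 36.7% of all genes were higher and 32.3% lower. The resveratrol arrays lay wholly above DMSO for 4 and wholly below for 0, beside 10.3% and 8.72% of all genes.

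The 6 oligodendrocyte precursor markers summed to 7.34 and 7.47 in Sirt1 KO and 7.38 and 7.56 in WT, which overlap. With resveratrol the sum was 7.30 and 7.31, against 7.54 and 7.73 with DMSO, apart and lower. The median difference was -0.54, and 5 of the 6 were lower in both pairs, where 32.3% of all genes were. The part of these cells in the values of Cdkn1c, Cdkn2b and the other genes was not tested.

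The 2 control groups were compared as well, DMSO minus WT. They differ in strain, solvent, culture, the sex of replicate 1 and the slide and scan day of replicate 2, which cannot be told apart. Its arrays are also in the other comparisons. In the fit of group means 0 of the 9 genes were called, and 2, Cdkn1b and Cdkn1c, had an unadjusted p below 0.05, as did 5.63% of all genes. Cdkn1b, which encodes p27, read 1.50 and 1.42 in DMSO and -0.25 and 0.40 in WT on the probe that stands for the gene. Both C57BL/6 groups were above both 129/ICR groups on this probe, with resveratrol at 1.51 and 1.16 and Sirt1 KO at 0.24 and 0.24. The difference was 1.38 (SE 0.28, 2.60-fold). Its limma adjusted p was 0.235 in the fit of group means, where 0.03% of genes were called higher and 0.045% lower. It was 0.00259 with the replicate block and 0.0694 with slide as the block. The replicate block is fitted within each arm, so it pairs no DMSO array with a WT array. In this comparison it takes replicate spread out of the error, and its p-values do not measure that spread.

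The second Cdkn1b probe, printed on 10 spots, did not share this. It read 0.21 and 0.08 in DMSO and 0.17 and 0.04 in WT, and 0.19 and -0.16 with resveratrol against 0.15 and 0.22 in Sirt1 KO. Its DMSO minus WT difference was 0.04 (SE 0.22), against 1.38 on the first probe, so the probes of 1 gene disagree. Their positions on the transcript were not used here, and the difference on the first probe is a value of that probe rather than of the gene. The 3 Ccnd2 probes, by contrast, differed by 0.13, 0.0069 and 0.23 in Sirt1 KO minus WT and by 0.23, 0.21 and 0.18 in resveratrol minus DMSO.

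**Figure D3:**
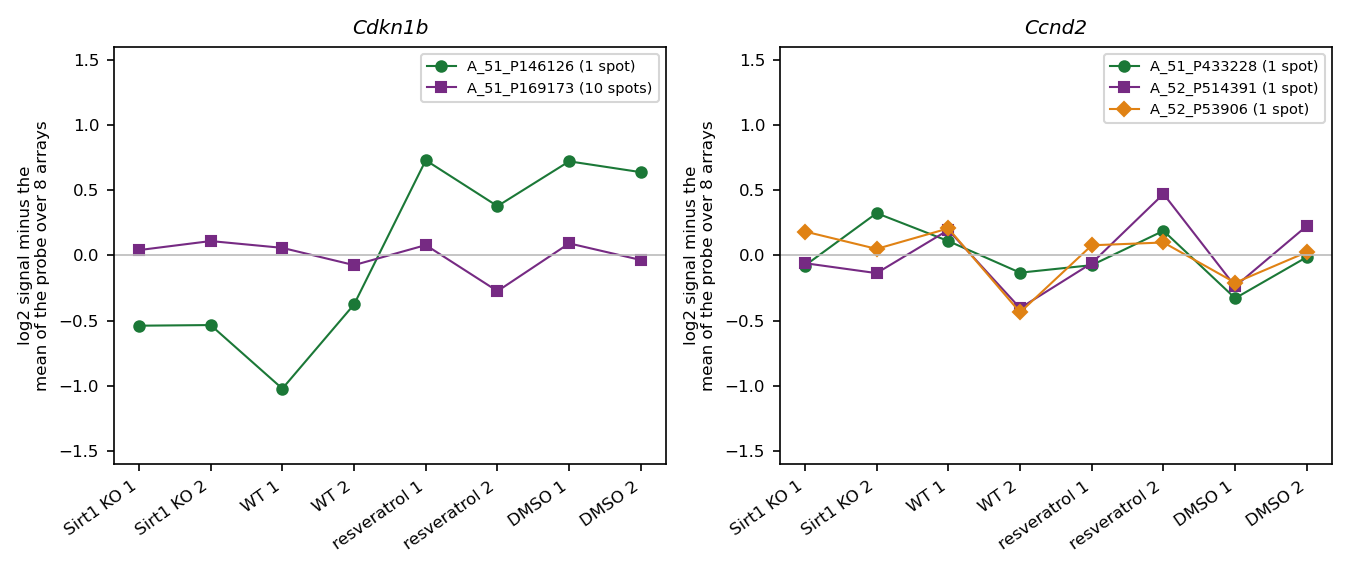
Log2 signal of each probe minus its own mean over the 8 arrays (y axis) for the 2 Cdkn1b probes (left) and the 3 Ccnd2 probes (right), by array (x axis). The Cdkn1b probe with 1 spot separates the DMSO and resveratrol arrays from the Sirt1 KO and WT arrays, and the probe with 10 spots does not.

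Cdkn1c differed by 1.10 in DMSO minus WT (SE 0.44; adjusted p = 0.812, replicate block adjusted p = 0.00383), and Cdkn1a by -0.85 (SE 0.61; adjusted p = 1.0, replicate block adjusted p = 0.0296). With slide as the block neither was called: Cdkn1c was at 1.38 (adjusted p = 0.129) and Cdkn1a at -0.53 (adjusted p = 0.803). The Cdkn1a call was also lost with the replicate block and no intensity trend (adjusted p = 0.117). The DMSO level of Cdkn1c, 2.70 and 2.03, was thus nearer to that of Sirt1 KO than to that of WT, and its resveratrol level was nearer to that of WT. With the replicate block 5.36% of all genes were called higher and 6.21% lower in DMSO minus WT, so that 2 of the 9 genes higher and 1 lower is read against a large background. As for Cdkn1b, the block pairs no arrays in this comparison, and its p-values do not measure the replicate spread.

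The replicates of a group differed more than the groups for several of these genes. Cdkn2d read 1.03 and 2.74 in Sirt1 KO, 1.18 and 3.08 in WT, 1.56 and 3.11 with resveratrol and 1.59 and 2.94 with DMSO. In each group replicate 2 was higher, by 1.71, 1.89, 1.55 and 1.35, which is more than any difference between groups for that gene. Replicate 2 was higher in all 4 groups for 5 of the 9 genes, beside 44.9% of all genes, and by at least 0.5 for 3, beside 19.2%. These 3 were Cdkn1a, Cdkn2c and Cdkn2d, and Cdkn2d alone of the 9 exceeded 1 in all 4 groups, beside 5.08% of all genes. Replicate number goes with the 75th percentile of the signal. It also goes with sex, slide and scan day in the genotype arm and with slide in the treatment arm. In the genotype arm replicate 1 lay on slides 1 and 2, and replicate 2 on slide 3, scanned on another day. These cannot be told apart.

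**Figure D4:**
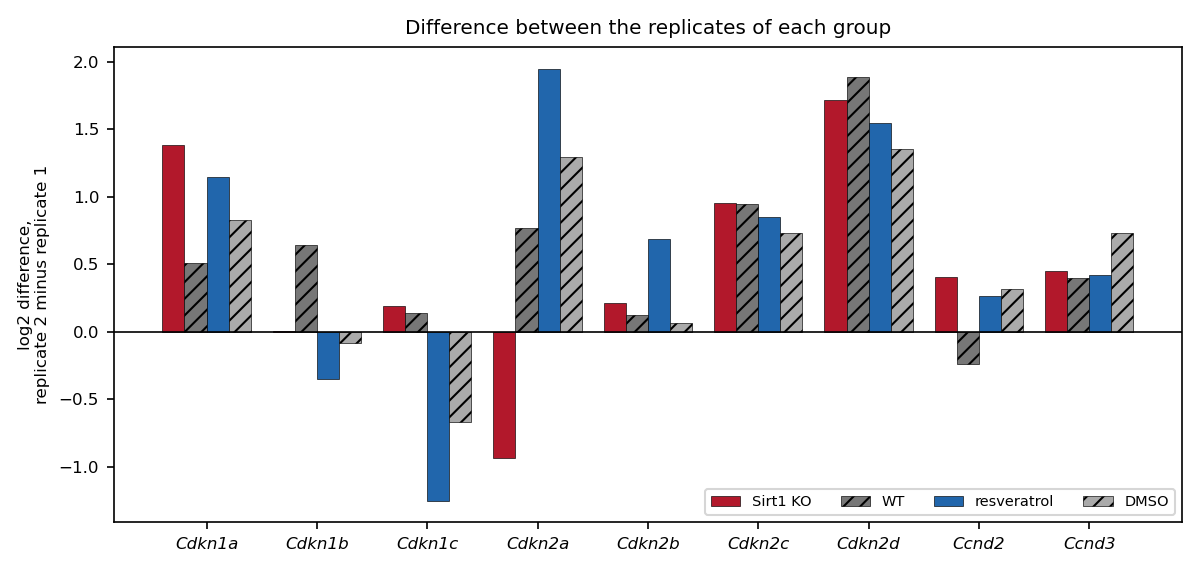
Log2 difference of replicate 2 minus replicate 1 (y axis) within each of the 4 groups for the 9 measured genes. The bars of Cdkn2c and Cdkn2d are above 0 in all 4 groups, those of Cdkn2a run from -0.93 in Sirt1 KO to 1.95 with resveratrol, and those of Cdkn1c are at 0.19 in Sirt1 KO and 0.14 in WT.

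Ordered by mean, Cdkn1c was lowest in WT, then with resveratrol, then with DMSO, and highest in Sirt1 KO. WT and resveratrol overlapped, as did DMSO and Sirt1 KO, and resveratrol and DMSO lay apart. Cdkn2b was lowest with DMSO, then in WT, then with resveratrol, and highest in Sirt1 KO, and among neighbours resveratrol and Sirt1 KO overlapped. On the probe that stands for the gene, Cdkn1b was lowest in WT, then in Sirt1 KO, then with resveratrol, and highest with DMSO. Only Sirt1 KO and resveratrol lay apart among neighbours on that probe, and on the second Cdkn1b probe they overlapped. For Cdkn1a the order was DMSO, Sirt1 KO, WT and resveratrol, with every pair of neighbours overlapping. For Cdkn2a, Cdkn2c, Cdkn2d, Ccnd2 and Ccnd3 every pair of neighbours in the order overlapped.

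The genes with the most similar pattern over the 8 arrays were searched among 11667 genes above background throughout, by Pearson correlation, which here also carries the replicate difference shared by arrays. For Cdkn1c they were Rgma (r = 0.949), a membrane-bound co-receptor for BMPs, and Cnp (r = 0.929), a protein of myelinating cells. Cnp read 2.54 and 2.65 in Sirt1 KO against 2.09 and 2.05 in WT, and 2.23 and 1.99 with resveratrol against 2.51 and 2.56 with DMSO, with groups apart in the same directions as Cdkn1c. For Cdkn2b they were Ugt1a6b (0.952), a glucuronosyltransferase, and Reep6 (0.939). For Cdkn1a they were Svop (0.982) and Sesn2 (0.970), the stress protein sestrin 2, a p53 target, which read 3.57 and 4.11 with resveratrol against 3.16 and 3.43 with DMSO.

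For Cdkn2c the most similar genes were Bud13 (0.997) and Melk (0.996), a mitotic kinase, and for Cdkn2d they were Rer1 and Fem1a (0.997 each). All 4 were higher in replicate 2 than in replicate 1 in every group, as Cdkn2c and Cdkn2d were. Cdkn2c and Cdkn2d correlated with each other at 0.944, and Cdkn2c with Ccnd3 at 0.903. Cdkn1b, on the probe that stands for the gene, was nearest to Nkd1 (0.984) and Lrp11 (0.983), and its second probe was not searched. Cdkn2a was nearest to Zfp874b (0.990) and Tmem59 (0.963), Ccnd2 to Klf3 (0.967) and Mak16 (0.962), and Ccnd3 to S1pr2 (0.995) and Poldip3 (0.992).

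The genes these inhibitors and cyclins act with were described from lists, none of whose genes were called in the fit of group means. In Sirt1 KO minus WT the 15 CDKs and other cyclins had a median of -0.29, with 11 lower and 0 higher in both pairs, where 34.2% of all genes were lower in both pairs and 22.3% higher. Ccna2, the S phase cyclin, differed by -0.58 (SE 0.26), with both Sirt1 KO arrays below both WT arrays. Cdk2 was not well above background on either Sirt1 KO array and was so on 1 of the 2 WT arrays. No difference is given for Cdk2, but it is 1 of the 15 genes behind the median and the counts. The 13 retinoblastoma and E2F genes had a median of -0.23, E2f7, a repressor of E2F targets, at -0.67 (SE 0.35) and Tfdp1, the E2F partner, at -0.39 (SE 0.26).

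Genes of mitosis and DNA replication, which are used later in the cycle, were described in the same way. In Sirt1 KO minus WT all 21 measured mitosis genes of 22 were lower in both pairs (median -0.47), among them Nusap1 at -0.53 (SE 0.21) and Foxm1, a transcription factor of G2 genes, at -0.56 (SE 0.24). Of 21 measured DNA replication genes of 22, 15 were lower in both pairs and 0 higher (median -0.42), with Gins3 at -0.60 (SE 0.31) and Cdc45 at -0.62 (SE 0.36). Over all genes 34.2% were lower in both Sirt1 KO pairs and 22.3% higher. In resveratrol minus DMSO the mitosis median was -0.14, with 16 of 21 lower in both pairs where 32.3% of all genes were, and the replication median was -0.15, with 14 of 21. Kif11 was at -0.43 (SE 0.29), Bub1b at -0.28 (SE 0.26), Pola1 at -0.37 (SE 0.28) and Mcm3 at -0.31 (SE 0.29). The CDK and cyclin median was -0.0016 with resveratrol and the retinoblastoma and E2F median -0.04, with Cdc25c at -0.32, Cdk1 at -0.24, Rbl1 at -0.40 and E2f8 at -0.26.

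The p53 targets other than Cdkn1a, 25 genes, were also described in resveratrol minus DMSO: 22 were higher and 1 lower in both pairs, where 36.7% of all genes were higher and 32.3% lower, and the median was 0.48. Fas, a death receptor, was at 1.37 (SE 0.35) and Tnfrsf10b, another death receptor, at 1.31 (SE 0.42). With the replicate block 3 of the 25 were called: Fas (adjusted p = 0.0428), Bbc3, the pro-apoptotic PUMA, at 0.93 (0.0431), and Perp at 2.28 (0.0471), where 0.405% of all genes were called higher. No gene was called in this comparison with the block and no intensity trend, with the block and all kept probes tested, or with slide as the block. In Sirt1 KO minus WT the same list had a median of -0.02. In both pairs 6 were higher and 5 lower, where 22.3% of all genes were higher and 34.2% lower. Gadd45a was at 0.88 (SE 0.54) and Ddit4 at 0.65 (SE 0.42).

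Known regulators of the inhibitors, 22 of 24 measured, had medians of -0.03 in Sirt1 KO minus WT and -0.0044 in resveratrol minus DMSO. In the first 6 were higher and 8 lower in both pairs, where 22.3% of all genes were higher and 34.2% lower. In the second 9 were higher and 7 lower in both pairs, where 36.7% of all genes were higher and 32.3% lower. Id1, a BMP target that opposes bHLH factors, was 1.19 higher in the female pair and 0.81 higher in the male pair (SE of the mean difference 0.66, replicate block adjusted p = 0.0538), and Ets1, an activator of Cdkn2a, was at -0.35 in Sirt1 KO minus WT (SE 0.31). Bmi1, the Polycomb protein known for repressing the Cdkn2a locus, was at -0.41 with resveratrol (SE 0.21), with both arrays below DMSO, and Hmga2 at 0.89 (SE 0.40). Among drivers of D cyclin transcription, 11 of 14 measured, medians were -0.03 in Sirt1 KO minus WT (Myc -0.33, Tcf7l2 0.14) and 0.05 in resveratrol minus DMSO. The AP-1 genes Fosl1 and Fos were at 1.41 (SE 0.66) and 0.69 (SE 0.41) with resveratrol, where Ccnd2 was at 0.23 and Ccnd3 at -0.11.

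**Figure D5:**
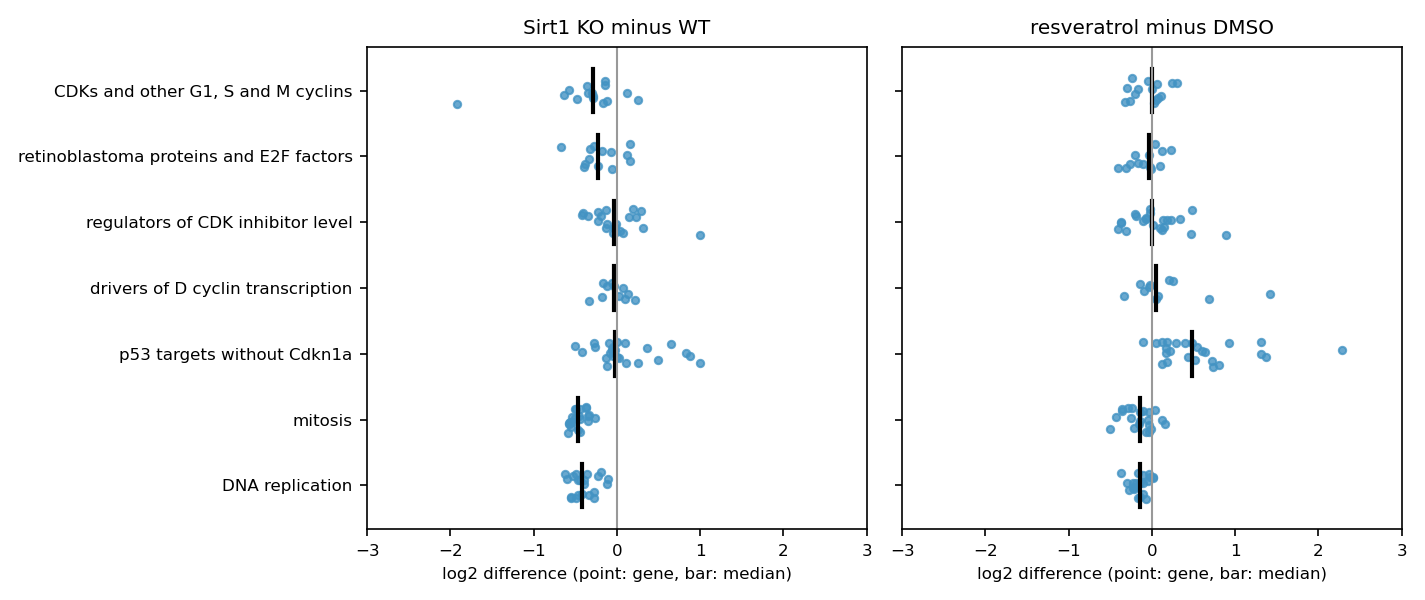
Log2 difference (x axis) of each gene in 7 lists for Sirt1 KO minus WT (left) and resveratrol minus DMSO (right), with a point per gene and a bar at the list's median. The medians of the mitosis and DNA replication genes are -0.47 and -0.42 on the left, and that of the p53 targets is 0.48 on the right.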

How the data were processed

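RNA of 8 neurosphere samples was measured on 1 one-colour array each. The deposited scanner files hold a background-corrected intensity per spot, not scaled between arrays (Agilent Feature Extraction 10.7, per the submitters' processing notes; the file headers give 10.7.3.1). The authors' deposited table of log2 values, used as an alternative, had matching ordered values within slides 1 and 2 and within slide 3; the software of that step is not given in the sources used here.

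Control spots and spots with outlier marks were dropped and replicate spots averaged. Each array's log2 intensities were centred on their 75th percentile. RefSeq symbols matched all but 14256 of 41174 probes. Well above background on both arrays of some group were 26362 probes, and the brightest stood for each of 13332 genes. The test was limma 3.58.1 (R 4.3.3): 4 group means over 8 arrays, intensity trend, two-sided, adjusted over all genes by Benjamini-Hochberg at 0.05. It was tested on simulated data. Alternatives were quantile normalization, normexp (offset 50; on median spot signals, since the files hold no mean signals), the deposited table, other probe filters, averaged probes, no trend, all kept probes, only the groups compared, marked spots kept, blocks for replicate number or slide, and each array left out; those on marked spots, normexp with 1 background per array and all kept probes, and each block combined with another setting, were chosen after seeing the data.

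Deviations from group means in arrays of the same replicate number correlated across genes at 0.737 (Sirt1 KO with WT) and 0.834 (resveratrol with DMSO). In the genotype arm the number is sex in the labels and also goes with slide and scan day in the headers. In the treatment arm it is slide in the headers. The members and gene lists were chosen with earlier results of these data known. Named are all members, Sirt1, in each context list the genes called or the 2 with the smallest p per comparison, and the 2 genes nearest in pattern to each member.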

Additional observations from a re-analysis of the deposited data

Results flagged for a closer look

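With replicate number as a block, the difference of differences of Cdkn1c was -2.50 on the log2 scale (SE 0.21, limma adjusted p = 0.00843). It sets resveratrol minus DMSO against Sirt1 KO minus WT, and is listed here because its sides differed by that test. The sides also differ in strain, culture, the sex of replicate 1 and slide, which cannot be told apart from genotype against compound. The value was built from 1.46 and 1.50 in the Sirt1 KO pairs and -0.73 and -1.31 in the resveratrol pairs. All 4 pairs thus show the direction. Without the block the same value had an adjusted p of 1.0. The summed signal of mature oligodendrocyte markers, most of it from Cnp, lay in the same direction in each arm. Of its 6 genes only 3 were higher in both Sirt1 KO pairs and 3 lower in both resveratrol pairs, and their part in the result was not tested. Groups of 2 arrays are too small to look for an array that stands apart from its group.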

How the results depend on the processing

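In Sirt1 KO minus WT and in resveratrol minus DMSO, the signs of Cdkn1c and Cdkn2b, and that of Cdkn1a in resveratrol minus DMSO, were kept in all 26 alternatives. So were those of Cdkn2c in Sirt1 KO minus WT and Ccnd2 in resveratrol minus DMSO, neither called in any setting. A kept sign thus does not set a gene apart, and the alternatives use the same arrays. The fit of group means called 0 genes in Sirt1 KO minus WT, in resveratrol minus DMSO and in the difference of differences, and 10 in DMSO minus WT, none of them among the 9 genes. With the replicate block these counts were 29, 61, 39 and 1543 genes, and 1, 1, 1 and 3 of the 9. In DMSO minus WT, which crosses the arms, the block pairs no arrays and only takes replicate spread out of the error. The block with quantile normalization gave 25, 37, 24 and 1473 genes (1, 0, 1 and 3 of the 9), with normexp and 1 background per array 11, 78, 19 and 1356 (1, 1, 1 and 3), with marked spots kept 20, 36, 20 and 1433 (1, 0, 1 and 3), with all kept probes tested 10, 0, 5 and 1307 (0, 0, 1 and 3), and with no intensity trend 0, 0, 0 and 897 (0, 0, 0 and 2). Slide as a block gave 0, 0, 0 and 138. In DMSO minus WT the count was also 3 with normexp on median signals, 5 with only the groups compared, 4 with probes well above background on all 8 arrays and 5 with all kept probes tested. Leaving out 1 array at a time gave 0 to 5 genes in Sirt1 KO minus WT, 0 in resveratrol minus DMSO, 0 to 3 in the difference of differences and 0 to 4 in DMSO minus WT, and 0 of the 9; the counts in Sirt1 KO minus WT were 5 without Sirt1 KO 1 and 3 without Sirt1 KO 2. The cause of these shifts was not tested. Normexp on median signals turned the sign of Cdkn1a, Cdkn2d and Ccnd3 in Sirt1 KO minus WT and of Cdkn2d in resveratrol minus DMSO, none of them called; Cdkn2d in resveratrol minus DMSO was also at -0.0045 with 1 background per array. A difference of differences fitted on only the groups compared could not be had, since it needs all 4. The lone array left in a group was assumed to vary like the others. The replicate block leaves 2 residual degrees of freedom, and the dimmer replicate 2 arrays limit values near background.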

Other observations

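Hes5, a Notch target in the neural stem and progenitor list, was named after its values were seen. It read 4.45 and 4.31 in Sirt1 KO against 2.83 and 2.63 in WT, and 3.81 and 2.91 with resveratrol against 5.21 and 5.12 with DMSO. Its groups lay apart in the same directions as those of Cdkn1c, higher in Sirt1 KO and lower with resveratrol. Higher in both Sirt1 KO pairs and lower in both resveratrol pairs were 6.17% of all genes. The list of 10 genes as a whole was not higher in Sirt1 KO. Its median was -0.08, with 3 higher and 5 lower in both pairs, where 22.3% of all genes were higher and 34.2% lower. In resveratrol minus DMSO the list had a median of -0.07, with 3 higher and 5 lower in both pairs. Over all genes 36.7% were higher and 32.3% lower in both of these pairs.

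On the Sirt1 KO 1 array, 1 of the 10 spots of the second Cdkn1b probe carried an outlier mark and read -7.65, while the 9 unmarked spots ran from -0.0050 to 0.50.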
